A study of Mus musculus with 9 samples.

Results

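The genes described here encode the route of glucose through a regulatory T cell (Treg): its uptake, the enzymes of glycolysis, the making and export of lactate, the kinases that close the mitochondrial gate for pyruvate, and the pentose phosphate pathway. They are 33 genes taken by name, of 23992 gene symbols in the deposited tables, each represented by the transcript with the most reads. All 33 were present, and 32 of them, among 10702 genes in all, reached 1 RPKM (reads relative to transcript length and sequencing depth) or more in 3 or more of the 9 libraries and were tested.

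Messenger RNA was sequenced from mouse Tregs of the BALB/c strain, labelled as from spleens, with a Foxp3-linked green fluorescent protein. All of them carried an orthogonal IL-2 receptor beta chain with a human EGFR tag (hEGFR-oIL-2Rβ), introduced by transduction, and all had been cultured with CD3/CD28 beads and human IL-2 at 1000 IU/mL for 48 hours, isolated by the tag and starved of IL-2 overnight. The 3 groups then received, for 4 hours, ortho IL-2 at 2000000 IU/mL, WT IL-2 at 20000 IU/mL, or no IL-2, with 3 libraries each. Ortho IL-2 is a variant made to signal through the orthogonal receptor, and the doses of both cytokines differ, so their comparison holds for these doses. The labels give no age or sex, do not say whether libraries came from separate cultures or animals, and attach a growth protocol that belongs to another assay. P-values therefore measure the spread between these libraries, which may be technical.

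Glycolysis splits glucose into pyruvate in the cytosol, and T cells that receive growth signals are known to turn much of that pyruvate into lactate. The pentose phosphate pathway branches off after the first phosphorylation, and yields NADPH and the ribose of nucleotides. In Tregs, both glycolysis and mitochondrial oxidation of fuels are known to be used, with the balance set in part by signals through mTOR, MYC and HIF-1.

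Libraries held 16581624 to 58182835 reads in the 1 transcript used per symbol, called reads in genes. The rest of the RPKM divisor is called reads outside genes or outside reads, and can include reads in other transcripts of the same genes. It made up 25.7% to 32.99% of the divisor of the ortho IL-2 libraries, 29.1% to 34.9% of the WT IL-2 libraries and 38.9% to 43.3% of the no IL-2 libraries. This share separates the cytokine groups from the control group, so its part in any difference between them cannot be told apart from the cytokine. Levels below are RPKM rescaled to the summed reads of the genes tested, with TMM factors, and are called TMM-scaled. The use of these summed reads in place of the divisor takes the outside reads out of the scale. The TMM factors themselves were 0.987 to 1.026. T cell and Treg markers were present throughout, with 9 of 10 in the tables and all 9 tested, of which 2 were called higher and 5 lower with either cytokine. Il2ra, the IL-2 receptor alpha chain, rose by 1.99 and 2.04 on the log2 scale with ortho and WT IL-2, Cd4 fell by 0.50 and 0.52, and Cd3g fell by 0.47 in both. Foxp3 was at 227, 213 and 263 RPKM with ortho IL-2, 269.9, 195 and 200.05 RPKM with WT IL-2 and 134, 138 and 138 RPKM with no IL-2. Of the markers of other cells, 1 of 7 for CD8 T and NK cells, 1 of 6 for B cells, 2 of 8 for myeloid cells and 0 of 8 for erythroid cells and platelets passed the level filter. WT IL-2 replicate 1 and ortho IL-2 replicate 3 deviated together from their groups, with a correlation of 0.79 across genes, and values without them are given where they matter. The cytokine groups also spread more, with a biological coefficient of variation of 10.0% for ortho IL-2, 10.7% for WT IL-2 and 5.39% for no IL-2.

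With ortho IL-2 against no IL-2, 26 of the 32 genes tested rose and 4 fell (edgeR quasi-likelihood test, Benjamini-Hochberg adjusted p below 0.05), where 56.0% of all genes tested were called, 28.5% higher and 27.4% lower. With WT IL-2 against the same no IL-2 libraries, 19 rose and 4 fell, where 47.9% of all genes tested were called, 25.0% higher and 22.9% lower. For the 32 genes, the median log2 fold change was 0.31 with ortho IL-2 and 0.21 with WT IL-2, while the median of all genes was 0.01 in each comparison. The changes were small, from -0.70 to 0.80 with ortho IL-2 and from -0.75 to 0.78 with WT IL-2 on the log2 scale. Groups did not overlap for 31 of the 32 genes with ortho IL-2, where 66.1% of all genes did not, and for 27 with WT IL-2, where 58.8% did not. Both comparisons share the no IL-2 libraries and are not independent of each other. In a pool of cells, fewer cells that make an RNA and less of it in each cell cannot be told apart.

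The summed level of the 33 genes was 9096 ± 190 RPKM with ortho IL-2, 8431 ± 539 RPKM with WT IL-2 and 7033 ± 141 RPKM with no IL-2 (SD, n = 3 each). As a share of reads in genes they took 1.83% ± 0.05 with ortho IL-2, 1.69% ± 0.13 with WT IL-2, against 1.41% ± 0.03 with no IL-2. The 17 genes of glycolysis itself summed to 1.34 times the no IL-2 level with ortho IL-2 and to 1.24 times with WT IL-2. The 7 pentose phosphate genes summed to 1.14 times with ortho IL-2 and to 1.11 times with WT IL-2. No difference between these sums was tested.

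**Figure D1:**
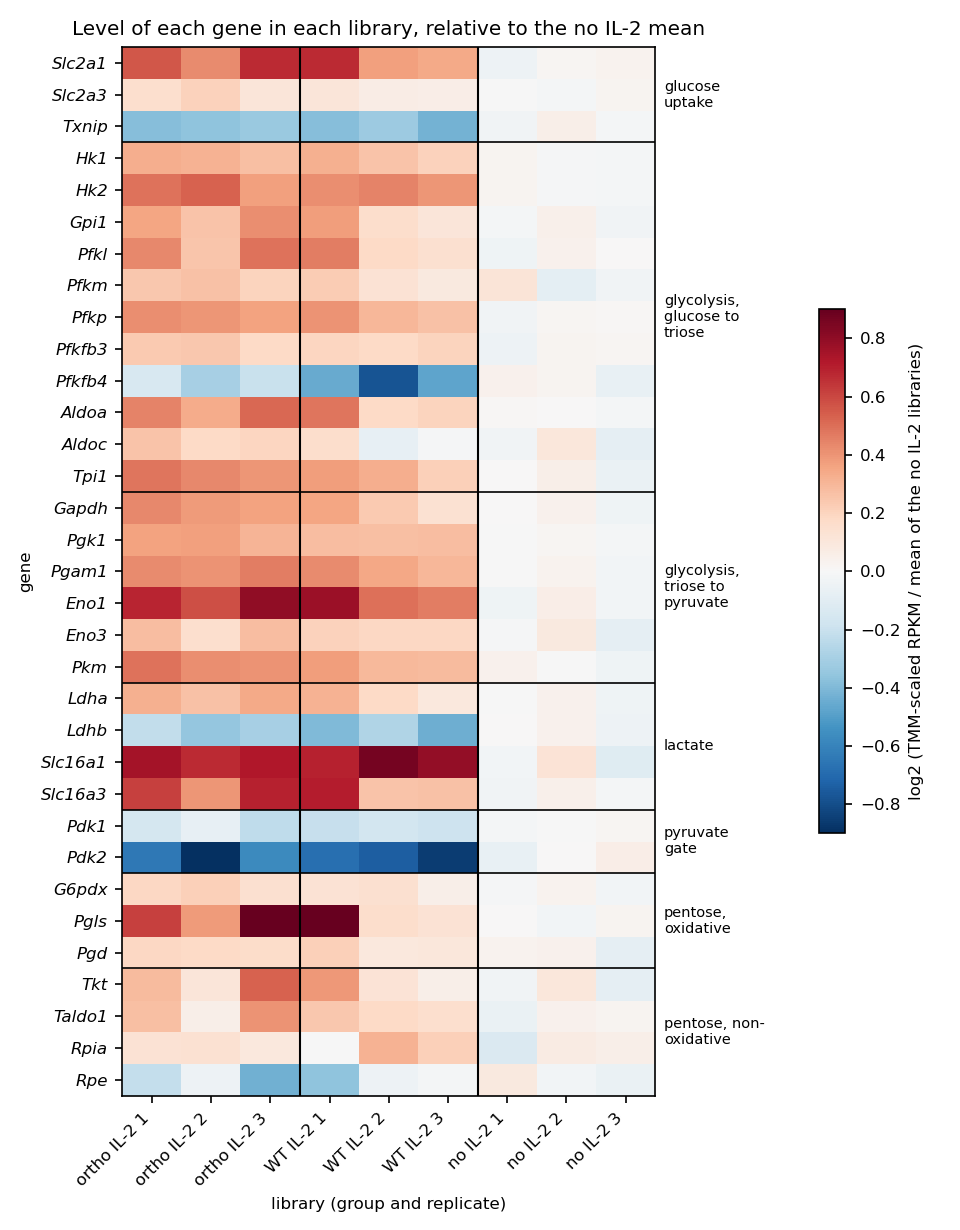
Level of each of the 33 genes in each library (columns, grouped by treatment) as log2 of the TMM-scaled RPKM over the mean of the 3 no IL-2 libraries, with genes in rows by pathway step; colours are clipped at -0.9 and 0.9. The rows of glycolytic genes called higher are redder with both cytokines, Txnip, Ldhb, Pdk1, Pdk2 and the untested Pfkfb4 are bluer, and Rpe and 2 of the 3 WT IL-2 libraries of Aldoc lie near or below the control level.

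Promoter windows from RefSeq (GRCm38.p6) are shown for 4 genes at different steps. These are Txnip, a brake on glucose uptake that fell, and Hk2, Pgk1 and Slc16a1, which rose. They were picked by hand, each with the motif marked in it, and do not stand for the other genes that rose. Each stretch holds the 250 bases before the RefSeq start, 5′ to 3′ along the gene, and capitals mark the motif named after the sequences. For Slc16a1 the stretch ends at 104638663, while the gene starts at 104638668 in GENCODE, which gave the gene coordinates below. Txnip lies on the plus strand at chr3:96557707-96557956, Hk2 on the minus strand at chr6:82774455-82774704, Pgk1 on the plus strand at chrX:106186850-106187099, and Slc16a1 on the plus strand at chr3:104638414-104638663.
Txnip: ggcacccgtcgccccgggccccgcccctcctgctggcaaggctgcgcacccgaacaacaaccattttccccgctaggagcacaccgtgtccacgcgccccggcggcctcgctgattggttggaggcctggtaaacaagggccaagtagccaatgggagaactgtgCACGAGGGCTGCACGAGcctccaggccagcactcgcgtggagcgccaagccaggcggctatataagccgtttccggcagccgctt
Hk2: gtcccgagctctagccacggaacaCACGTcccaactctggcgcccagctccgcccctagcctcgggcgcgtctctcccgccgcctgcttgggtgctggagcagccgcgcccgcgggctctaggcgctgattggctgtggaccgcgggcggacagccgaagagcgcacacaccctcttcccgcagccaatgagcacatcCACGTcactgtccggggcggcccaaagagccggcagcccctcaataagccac
Pgk1: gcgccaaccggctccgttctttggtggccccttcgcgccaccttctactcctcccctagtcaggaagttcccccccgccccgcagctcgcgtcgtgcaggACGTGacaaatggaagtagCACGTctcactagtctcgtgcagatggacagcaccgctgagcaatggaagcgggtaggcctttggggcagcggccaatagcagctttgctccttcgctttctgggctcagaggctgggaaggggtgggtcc
Slc16a1: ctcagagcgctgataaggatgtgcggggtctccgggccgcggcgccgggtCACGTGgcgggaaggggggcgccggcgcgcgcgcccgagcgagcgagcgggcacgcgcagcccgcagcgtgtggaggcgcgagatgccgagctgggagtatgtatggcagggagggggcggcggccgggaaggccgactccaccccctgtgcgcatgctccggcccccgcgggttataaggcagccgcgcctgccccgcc

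In Hk2, Pgk1 and Slc16a1 the capitals mark ACGTG or its reverse complement CACGT, the core of the element that hypoxia-inducible factors bind. Hk2 holds it 226 and 52 bases before the start and Pgk1 150 and 131 bases before it. In Slc16a1, 200 bases before the start, the match is part of CACGTG, the E-box that MYC and related factors bind. Over both strands of windows of 300 bases, ACGTG was found in 40.4% of 47 windows of the 32 member genes that have one, and in 19.6% of all 32851 windows. By gene, 16 of the 32 held it. Eno1, Tpi1 and Pfkp, which also rose with both cytokines, did not. CACGTG, which always contains ACGTG, was found in 10.6% of member windows (Ldha, Pdk2, Pfkfb3, Pfkm and Slc16a1) and 7.15% of all windows. TTCNNNGAA, the motif of STAT factors, was found in 4.26% of member windows (Aldoc and Pfkm) and 8.30% of all windows. A match is a run of letters and not a site in use, and several windows belong to the same gene. The set of all windows includes genes that were not tested here. No set of windows alike in expression or GC content was compared, and the differences in share were not tested.

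In Txnip the capitals span CACGAG, 5 bases, and CACGAG again, a pair of elements known from the human gene as the carbohydrate response element. The pair was chosen as a motif after this sequence had been seen. It starts 85 bases before the gene's start and was found in 1 of the 32851 windows.

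The uptake step changed in both directions. Slc2a1, the glucose transporter GLUT1 (chr4:119108711-119137983, GRCm38), was at 149, 136 and 160.2 RPKM with ortho IL-2, 160.2, 130.1 and 128 RPKM with WT IL-2 and 97.4, 102 and 103 RPKM with no IL-2. Every library given a cytokine lay above every no IL-2 library. The log2 fold change was 0.56 ± 0.09 (SE, edgeR adjusted p = 0.0006) with ortho IL-2 and 0.47 ± 0.09 (adjusted p = 0.0019) with WT IL-2. Without WT IL-2 replicate 1 and ortho IL-2 replicate 3 it was 0.50 with ortho IL-2 and 0.35 with WT IL-2, and both remained called. With a term for outside reads in the fit it was 0.38 (adjusted p = 0.20) and 0.33 (adjusted p = 0.17), and neither was called.

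Slc2a3, the high-affinity transporter GLUT3, was at 139, 144 and 135 RPKM with ortho IL-2, 135, 131 and 130.2 RPKM with WT IL-2 and 125, 124 and 127 RPKM with no IL-2. It rose with ortho IL-2 by a log2 fold change of 0.16 ± 0.04 (edgeR adjusted p = 0.0099). With WT IL-2 its value was 0.08 ± 0.04 (adjusted p = 0.15), and it was not called under 8 of 13 alternatives. It was called higher on the deposited RPKM scale, in both limma fits, and with GC offsets with or without the replicate block. Per length, Slc2a3 therefore stood above Slc2a1 in every no IL-2 library, while in 2 of 3 ortho IL-2 libraries and 1 of 3 WT IL-2 libraries Slc2a1 stood above Slc2a3.

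Txnip, an arrestin that promotes removal of glucose transporters from the surface and is itself induced by glucose (chr3:96557957-96561883), fell. It was at 254, 257 and 262 RPKM with ortho IL-2, 254, 263 and 246 RPKM with WT IL-2 and 323, 342 and 326 RPKM with no IL-2, with no overlap of either cytokine group with the controls. The log2 fold change was -0.36 ± 0.04 (edgeR adjusted p = 9.8e-05) with ortho IL-2 and -0.38 ± 0.04 (adjusted p = 7.4e-05) with WT IL-2. On the RPKM scale as deposited the values were -0.08 and -0.16 and Txnip was not called, since that scale moves the median of all genes by 0.29 and 0.22. Gm15441, annotated on the opposite strand of Txnip, was at 1.23 to 2.40 RPKM in all libraries.

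In the upper part of glycolysis, from glucose to the triose phosphates, all 10 genes tested rose with ortho IL-2 and 8 of 10 with WT IL-2, the other two being Pfkm and Aldoc. Hexokinases trap glucose by phosphorylation. Hk2, the inducible hexokinase (chr6:82725025-82774454), was at 85.7, 88.0 and 78.8 RPKM with ortho IL-2, 81.7, 83.2 and 80.5 RPKM with WT IL-2 and 62.0, 60.6 and 60.4 RPKM with no IL-2. The lowest cytokine library was well above the highest control. The log2 fold change of Hk2 was 0.46 ± 0.05 (edgeR adjusted p = 3.2e-05) with ortho IL-2 and 0.42 ± 0.05 (adjusted p = 6.2e-05) with WT IL-2, and it was called under every alternative run. Hk1, the more broadly expressed hexokinase, rose by 0.30 ± 0.04 (adjusted p = 0.00025) and 0.26 ± 0.04 (adjusted p = 0.00069). With offsets for GC content these values were 0.08 and 0.11 and Hk1 was not called. Hk2 made up 44.2% ± 1.0 of the summed hexokinase level with ortho IL-2, 44.2% ± 0.87 with WT IL-2, against 41.5% ± 0.075 with no IL-2.

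Gpi1, which converts glucose 6-phosphate to fructose 6-phosphate, averaged 284 ± 15.8 RPKM with ortho IL-2, 260.3 ± 26.4 RPKM with WT IL-2 and 224 ± 6.67 RPKM with no IL-2 (SD, n = 3 each). Its log2 fold changes were 0.34 and 0.22, and the rise with WT IL-2 was lost without WT IL-2 replicate 1, at 0.13.

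Phosphofructokinase commits the sugar to glycolysis, and Tregs expressed all 3 of its subunits. Pfkp, the platelet-type subunit and the most abundant per length, was at 210.0, 207 and 202 RPKM with ortho IL-2, 208, 193 and 189 RPKM with WT IL-2 and 154, 159 and 159 RPKM with no IL-2. The groups given a cytokine were clear of the controls. Pfkp changed by a log2 fold change of 0.39 ± 0.05 (edgeR adjusted p = 7.5e-05) with ortho IL-2 and 0.32 ± 0.05 (adjusted p = 0.00031) with WT IL-2. Pfkl, the liver-type subunit, rose by 0.39 ± 0.09 and 0.27 ± 0.09 and was highest in WT IL-2 replicate 1 and ortho IL-2 replicate 3, at 96.9 and 98.7 RPKM. Without the first of these libraries Pfkl stood at 0.16 with WT IL-2 and was not called. Pfkm, the muscle-type subunit, rose with ortho IL-2, by 0.24 ± 0.06, and had a value of 0.15 ± 0.06 (adjusted p = 0.08) with WT IL-2. The share of Pfkp in the 3 subunits was 65.0% ± 1.8 with ortho IL-2, 65.8% ± 1.4 with WT IL-2, against 64.5% ± 0.29 with no IL-2, values that overlap.

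Pfkfb3 makes a sugar bisphosphate that is the strong activator of phosphofructokinase. It rose by 0.22 ± 0.04 with ortho IL-2 (edgeR adjusted p = 0.0013) and by 0.19 ± 0.04 with WT IL-2 (adjusted p = 0.0032). With GC offsets it stood at 0.08 and 0.10 and was not called. Pfkfb4, a relative with the same substrate, was too low to test. It was at 1.28, 1.15 and 1.23 RPKM with ortho IL-2, 1.03, 0.820 and 1.01 RPKM with WT IL-2 and 1.45, 1.43 and 1.35 RPKM with no IL-2, so the no IL-2 libraries were the highest on the TMM scale. On the deposited RPKM scale that order does not hold, and the highest value, 0.931 RPKM, is that of ortho IL-2 replicate 3.

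The aldolases cleave the doubly phosphorylated sugar, and triose phosphate isomerase, Tpi1, interconverts the products. Aldoa, the main aldolase here, averaged 957 ± 59.2 RPKM with ortho IL-2, 868 ± 104 RPKM with WT IL-2 and 709 ± 8.81 RPKM with no IL-2 (SD, n = 3 each), with log2 fold changes of 0.43 ± 0.08 and 0.29 ± 0.08. Aldoc was far lower, at 26.1 ± 0.715 RPKM with ortho IL-2, 23.0 ± 1.94 RPKM with WT IL-2 and 22.6 ± 1.49 RPKM with no IL-2. It rose with ortho IL-2 (0.21 ± 0.07, edgeR adjusted p = 0.032), and with WT IL-2 its value was 0.03 ± 0.07, which changed sign under 5 alternatives. Tpi1 was at 718, 694 and 678 RPKM with ortho IL-2, 669, 645 and 596 RPKM with WT IL-2 and 516, 532 and 493 RPKM with no IL-2. All groups were clear of each other, and Tpi1 rose by 0.44 ± 0.05 (adjusted p = 9.9e-05) and 0.31 ± 0.05 (adjusted p = 0.0011).

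All 6 genes of the lower part of glycolysis, from the triose phosphates to pyruvate, rose with either cytokine. Gapdh, the dehydrogenase that yields NADH, was the most abundant of the 33 genes, at 1624, 1571 and 1548 RPKM with ortho IL-2, 1536, 1419 and 1324 RPKM with WT IL-2 and 1204, 1236 and 1169 RPKM with no IL-2. No library of one group fell within the range of another. Its log2 fold change was 0.39 ± 0.06 (edgeR adjusted p = 0.00031) with ortho IL-2 and 0.25 ± 0.06 (adjusted p = 0.006) with WT IL-2, and with GC offsets it was 0.16 and 0.08, the second of them not called. A gene often used as an internal standard thus differed between these groups.

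Pgk1, which makes the first ATP of the pathway, was at 867, 872 and 834 RPKM with ortho IL-2, 818, 813 and 817 RPKM with WT IL-2 and 674, 684 and 667 RPKM with no IL-2. Its libraries were among the tightest, and it rose by 0.35 ± 0.04 (edgeR adjusted p = 5.9e-05) and 0.27 ± 0.04 (adjusted p = 0.0003). Pgam1, the mutase that follows, rose by 0.43 ± 0.05 with ortho IL-2 and 0.36 ± 0.05 with WT IL-2. Both genes were called in both comparisons under every alternative run.

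Eno1, the ubiquitous enolase (chr4:150236721-150248879), had the largest rise among the glycolytic enzymes. It was at 709, 657 and 767 RPKM with ortho IL-2, 751, 621 and 606 RPKM with WT IL-2 and 428, 459 and 433.6 RPKM with no IL-2. The highest values of the cytokine groups came from ortho IL-2 replicate 3 and WT IL-2 replicate 1, yet all 6 libraries exceeded the controls. The fold over no IL-2 was 1.62 with ortho IL-2 (95% interval 1.41 to 1.85, edgeR adjusted p = 0.00011) and 1.499 with WT IL-2 (1.31 to 1.71, adjusted p = 0.00036). Without those libraries the log2 fold change was 0.64 with ortho IL-2 and 0.48 with WT IL-2, and both were called. With the share of outside reads in the fit it was 0.51 (adjusted p = 0.076) and 0.44 (adjusted p = 0.059), and neither was called.

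Eno3, the muscle enolase, rose less, by 0.24 ± 0.06 and 0.19 ± 0.06, and was not called with GC offsets, at 0.07 and 0.08. Its share of the summed Eno1 and Eno3 level was 2.73% ± 0.11 with ortho IL-2, 2.87% ± 0.29 with WT IL-2, against 3.70% ± 0.13 with no IL-2. Pkm, the pyruvate kinase that ends glycolysis, was at 1048, 1001 and 990.0 RPKM with ortho IL-2, 969, 915 and 910.1 RPKM with WT IL-2 and 769, 746 and 729.8 RPKM with no IL-2. It rose by 0.44 ± 0.05 (edgeR adjusted p = 3.9e-05) with ortho IL-2 and 0.32 ± 0.05 (adjusted p = 0.00036) with WT IL-2. The M1 and M2 isoforms of this kinase are set by a choice between exons. The counts of the 2 Pkm transcripts in the tables differed by 0.872% to 2.80%, so the tables do not separate them.

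**Figure D2:**
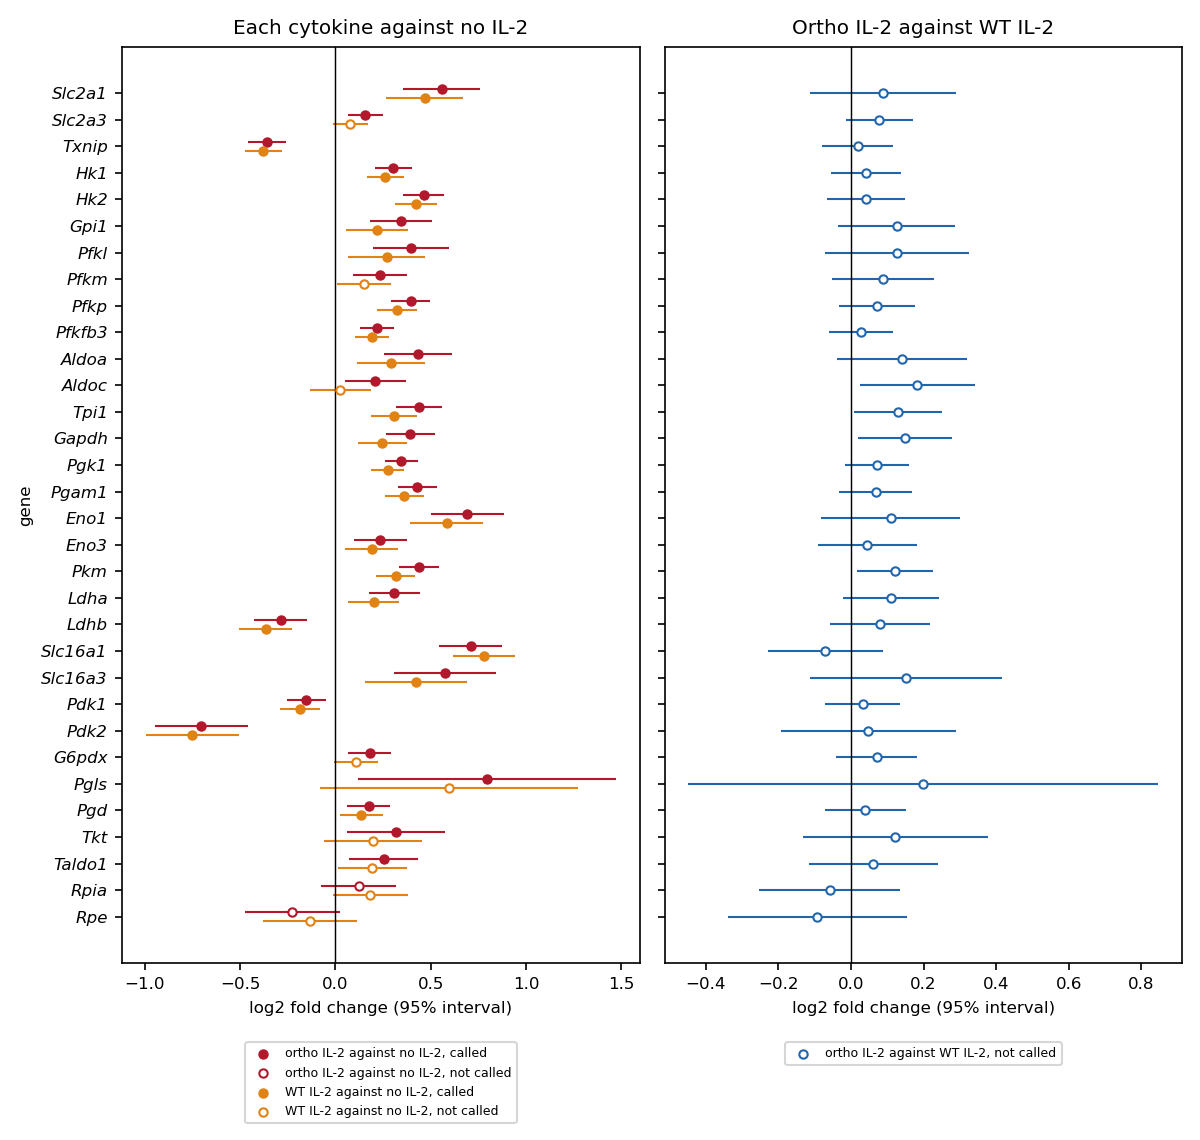
Log2 fold change of the 32 genes tested with its 95% interval, for ortho IL-2 (red) and WT IL-2 (orange) against no IL-2 on the left and for ortho IL-2 against WT IL-2 (blue) on the right; filled points were called and open points were not. The left panel leans to the right of 0 except for Txnip, Ldhb, Pdk1, Pdk2 and Rpe, and every point on the right is open.

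At the lactate step the common form of lactate dehydrogenase rose and the rarer form fell. Ldha, whose subunit is found in tissues that make lactate, was at 1057, 1014 and 1069.8 RPKM with ortho IL-2, 1052, 958 and 901 RPKM with WT IL-2 and 844, 869 and 821 RPKM with no IL-2. Ldha rose by 0.31 ± 0.06 (edgeR adjusted p = 0.0017) with ortho IL-2 and 0.20 ± 0.06 (adjusted p = 0.019) with WT IL-2. Ldhb, whose subunit predominates in heart, was at 25.1, 23.0 and 23.9 RPKM with ortho IL-2, 22.3, 24.3 and 21.7 RPKM with WT IL-2 and 29.4, 30.0 and 28.4 RPKM with no IL-2. All 6 cytokine libraries lay below the controls, with a log2 fold change of -0.29 ± 0.06 (adjusted p = 0.0033) and -0.37 ± 0.06 (adjusted p = 0.00084). On the deposited RPKM scale Ldhb was at -0.01 with ortho IL-2 and -0.15 with WT IL-2 and was not called. The share of Ldhb in both subunits does not depend on that scale, and was 2.24% ± 0.072 with ortho IL-2, 2.30% ± 0.20 with WT IL-2, against 3.35% ± 0.016 with no IL-2, without overlap.

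Both lactate carriers rose. Slc16a1, the carrier MCT1 (chr3:104638668-104658462), was at 7.87, 7.44 and 7.71 RPKM with ortho IL-2, 7.57, 8.52 and 8.10 RPKM with WT IL-2 and 4.60, 5.11 and 4.35 RPKM with no IL-2. The fold over no IL-2 was 1.63 with ortho IL-2 (95% interval 1.46 to 1.83, edgeR adjusted p = 3e-05) and 1.72 with WT IL-2 (1.53 to 1.92, adjusted p = 1.6e-05). It was called under every alternative, and with GC offsets its log2 fold change was 0.91 in both comparisons, above the 0.71 and 0.78 without them.

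Slc16a3, the carrier MCT4 known from cells that export much lactate, was about an order more abundant. It was at 83.7, 72.0 and 88.2 RPKM with ortho IL-2, 89.1, 65.0 and 65.5 RPKM with WT IL-2 and 53.3, 56.4 and 54.0 RPKM with no IL-2, with ortho IL-2 replicate 3 and WT IL-2 replicate 1 again the highest. Slc16a3 rose by 0.58 ± 0.12 (edgeR adjusted p = 0.0027) and 0.42 ± 0.12 (adjusted p = 0.015), and without those libraries 0.52 and 0.26, still called. With the share of outside reads in the fit it was 0.435 (adjusted p = 0.29) and 0.31 (adjusted p = 0.35), and neither was called. The proteins of both carriers reach the surface with the help of partners from the immunoglobulin family. Bsg (basigin), a partner of both, rose by 0.32 ± 0.07 with ortho IL-2 and 0.25 ± 0.07 with WT IL-2. Emb (embigin), another such partner, fell. It was at 44.5, 48.4 and 47.6 RPKM with ortho IL-2, 44.6, 50.2 and 50.6 RPKM with WT IL-2 and 119, 120.1 and 113 RPKM with no IL-2, a log2 fold change of -1.33 ± 0.06 (adjusted p = 9.7e-08) and -1.28 ± 0.06 (adjusted p = 1.2e-07). The carriers Slc16a7 and Slc16a8, listed with these partners, were too low to test.

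**Figure D3:**
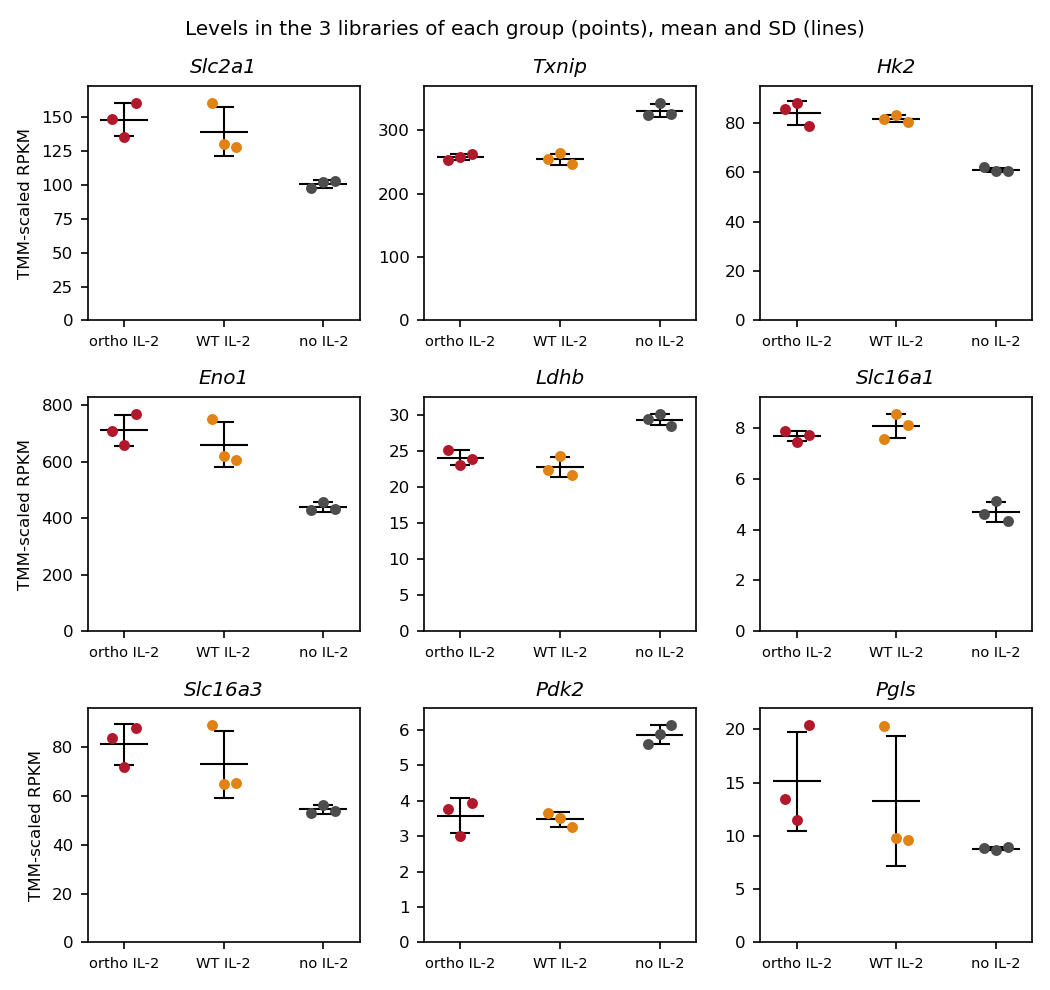
TMM-scaled RPKM of 9 of the genes in each library (points), with the mean and SD of each group (lines); all axes start at 0. Slc2a1, Hk2, Eno1, Slc16a1 and Slc16a3 lie above the no IL-2 libraries with either cytokine, Txnip, Ldhb and Pdk2 below them, and the high points of Pgls are WT IL-2 replicate 1 and ortho IL-2 replicate 3.

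The pyruvate dehydrogenase kinases shut the mitochondrial complex that takes up pyruvate, and there are 4 of their genes, of which Pdk1 and Pdk2 are among the 33. Both of these were called lower, though for Pdk1 not under all scalings. Pdk2 (chr11:95026258-95041354) was at 3.77, 3.01 and 3.95 RPKM with ortho IL-2, 3.67, 3.52 and 3.26 RPKM with WT IL-2 and 5.61, 5.88 and 6.13 RPKM with no IL-2. The fold over no IL-2 was 0.614 with ortho IL-2 (95% interval 0.52 to 0.73, edgeR adjusted p = 0.00043) and 0.594 with WT IL-2 (0.50 to 0.70, adjusted p = 0.00031). Pdk2 was called under every alternative in which it was tested, and was too low to be tested with a minimum of 5 RPKM.

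Pdk1, the more abundant kinase, was at 45.9, 48.7 and 43.6 RPKM with ortho IL-2, 44.4, 45.7 and 45.03 RPKM with WT IL-2 and 50.7, 51.2 and 51.7 RPKM with no IL-2. Its log2 fold change was -0.15 ± 0.05 (edgeR adjusted p = 0.019) and -0.19 ± 0.05 (adjusted p = 0.0083). On the deposited RPKM scale its sign turned, to 0.12 with ortho IL-2 and 0.03 with WT IL-2, so no direction holds for Pdk1 across scalings. Pdk2 as a share of the summed Pdk1 and Pdk2 level was 7.23% ± 1.3 with ortho IL-2, 7.18% ± 0.45 with WT IL-2, against 10.3% ± 0.32 with no IL-2.

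The other kinase genes of the family are named here after their values were seen. Pdk3 was at 18.9, 18.6 and 17.4 RPKM with ortho IL-2, 17.96, 17.8 and 17.9 RPKM with WT IL-2 and 17.4, 17.9 and 17.2 RPKM with no IL-2, and was not called in either comparison (0.06 ± 0.05 and 0.03 ± 0.05). Pdk4 was at 1.89, 1.46 and 1.16 RPKM with ortho IL-2, 1.55, 1.42 and 2.31 RPKM with WT IL-2 and 2.88, 2.51 and 4.41 RPKM with no IL-2. It was called lower in both comparisons, at -1.11 ± 0.26 (edgeR adjusted p = 0.0056) and -0.88 ± 0.26 (adjusted p = 0.019).

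Among 12 other genes of pyruvate entry, which include Pdk3 and Pdk4, all tested, 2 rose and 2 fell with either cytokine. Pdp1, the phosphatase that opposes these kinases, was at 4.15, 4.58 and 3.72 RPKM with ortho IL-2, 4.10, 4.10 and 4.82 RPKM with WT IL-2 and 2.79, 2.57 and 2.56 RPKM with no IL-2. It rose by 0.65 ± 0.10 (edgeR adjusted p = 0.0005) and 0.72 ± 0.10 (adjusted p = 0.00028). Pdha1, the alpha subunit of the complex, rose by 0.25 ± 0.07 and 0.29 ± 0.07, and omission of no IL-2 replicate 3 ended the call with ortho IL-2 (0.20). Pdpr, a regulatory subunit of the phosphatase, fell by 0.26 in both comparisons on the log2 scale, and on the deposited RPKM scale its sign turned with ortho IL-2, to 0.02.

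**Figure D4:**
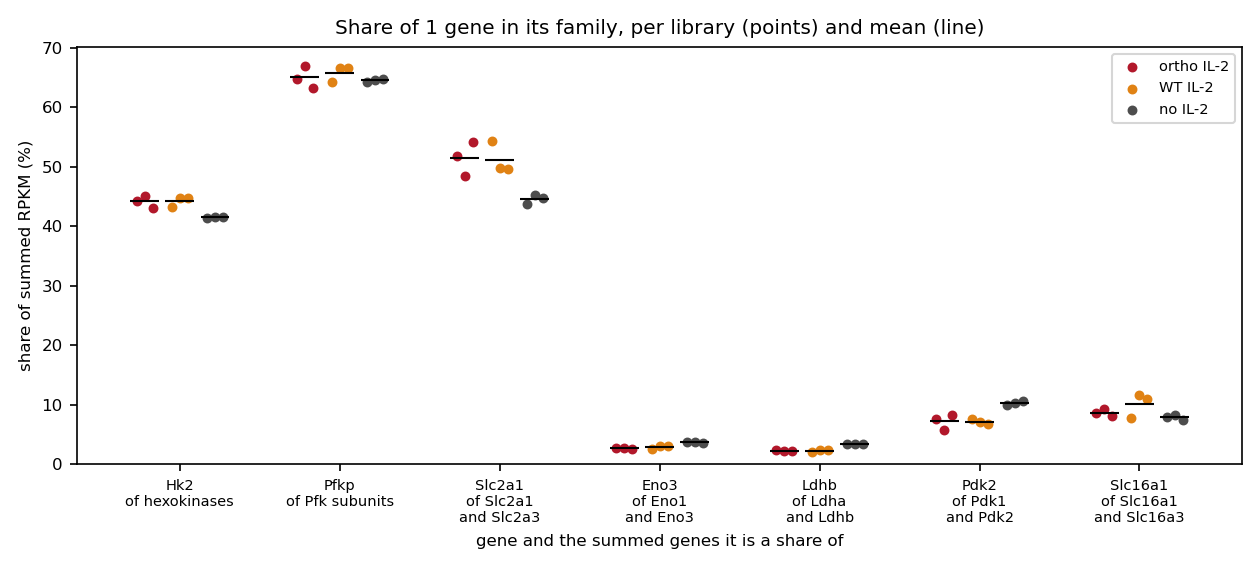
Share of Hk2, Pfkp, Slc2a1, Eno3, Ldhb, Pdk2 and Slc16a1 in the summed RPKM of the genes named under each, per library (points) with the group mean (line). Shares of Hk2 and Slc2a1 are higher, and shares of Eno3, Ldhb and Pdk2 lower, in every cytokine library than in every no IL-2 library, while those of Pfkp and Slc16a1 overlap.

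Of the 3 enzymes of the oxidative branch of the pentose phosphate pathway, the branch that yields NADPH, all rose with ortho IL-2 and 1 with WT IL-2. G6pdx, glucose 6-phosphate dehydrogenase and the entry enzyme, was at 14.3, 14.6 and 13.9 RPKM with ortho IL-2, 13.7, 13.9 and 13.0 RPKM with WT IL-2 and 12.5, 12.9 and 12.4 RPKM with no IL-2. Groups did not overlap between cytokine and control, and the log2 fold change was 0.18 ± 0.05 (edgeR adjusted p = 0.014) with ortho IL-2 and 0.11 ± 0.05 (adjusted p = 0.11) with WT IL-2. Ikbkg overlaps G6pdx on the opposite strand, and strand use is not given.

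Pgd, the second dehydrogenase, averaged 42.1 ± 0.354 RPKM with ortho IL-2, 40.9 ± 1.92 RPKM with WT IL-2 and 37.2 ± 1.70 RPKM with no IL-2 (SD, n = 3 each). Its log2 fold changes were 0.18 ± 0.05 (edgeR adjusted p = 0.015) and 0.14 ± 0.05 (adjusted p = 0.049). G6pdx with ortho IL-2 and Pgd in both comparisons were not called with GC offsets, at 0.10 for G6pdx and 0.02 and 0.03 for Pgd.

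Pgls, the lactonase between them, was at 13.5, 11.5 and 20.4 RPKM with ortho IL-2, 20.3, 9.81 and 9.64 RPKM with WT IL-2 and 8.83, 8.64 and 8.93 RPKM with no IL-2. A single library in each cytokine group was far above the others, and these were WT IL-2 replicate 1 and ortho IL-2 replicate 3. The log2 fold change of 0.80 ± 0.30 (edgeR adjusted p = 0.046) with ortho IL-2 was 0.51 and no longer called without ortho IL-2 replicate 3. The value of 0.60 ± 0.30 (adjusted p = 0.13) with WT IL-2 was 0.14 without WT IL-2 replicate 1. Its transcript has the highest GC content of the genes tested here, at 65.4%, and Fam129c overlaps it on the same strand.

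Of the 4 non-oxidative enzymes, which shuttle carbon between ribose and glycolysis, 2 rose with ortho IL-2 and 0 with WT IL-2. Tkt, transketolase, was at 37.5, 33.04 and 44.2 RPKM with ortho IL-2, 40.3, 33.4 and 31.9 RPKM with WT IL-2 and 30.1, 32.9 and 29.0 RPKM with no IL-2. Its log2 fold change was 0.32 ± 0.11 (edgeR adjusted p = 0.037) with ortho IL-2, lost without ortho IL-2 replicate 3 at 0.20, and 0.20 ± 0.11 (adjusted p = 0.18) with WT IL-2. Taldo1, transaldolase, had values of 0.25 ± 0.08 (adjusted p = 0.023), likewise lost without that library at 0.17, and 0.19 ± 0.08 (adjusted p = 0.074). Rpia and Rpe, the isomerase and epimerase of the pentoses, were not called in either comparison. Rpia had values of 0.12 ± 0.09 and 0.18 ± 0.09. Rpe had -0.23 ± 0.11 and -0.13 ± 0.11, and its sign turned on the deposited RPKM scale and with GC offsets.

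GC content varied among the genes, and offsets for it changed their values. The 32 genes tested had a median transcript GC content of 53.8%, against 50.0% for all genes tested, from 39.04% in Rpe to 65.4% in Pgls. With offsets that take each library's dependence on GC out, 17 genes rose and 3 fell with ortho IL-2, and 14 rose and 4 fell with WT IL-2, and the medians were 0.17 and 0.11. The calls lost with ortho IL-2 were those of Hk1, Pfkm, Pfkfb3, Aldoc, Eno3, Pdk1, G6pdx, Pgd, Tkt and Taldo1, and with WT IL-2 those of Hk1, Pfkfb3, Gapdh, Eno3, Pkm and Pgd. Slc2a3 gained a call, higher, with WT IL-2 under these offsets. With the share of outside reads as a covariate, 10 genes were called with ortho IL-2 (Txnip, Hk1, Hk2, Pfkp, Tpi1, Pgk1, Pgam1, Pkm, Slc16a1 and Pdk2) and 10 with WT IL-2 (the same with Ldhb in place of Tpi1). Calls lost in both comparisons with this covariate include those of Slc2a1, Eno1, Gapdh, Aldoa, Ldha and Slc16a3. Called under every alternative in which they were tested were 8 genes with ortho IL-2 (Hk2, Pfkp, Tpi1, Pgk1, Pgam1, Pkm, Slc16a1 and Pdk2) and 6 with WT IL-2 (the same without Tpi1 and Pkm).

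Several calls needed all libraries. With ortho IL-2, leaving out any no IL-2 library ended the call of Pgls (0.80, 0.78 and 0.81 without replicates 1, 2 and 3), as did leaving out ortho IL-2 replicate 1 (0.88) or 3 (0.51). The call of Tkt ended when no IL-2 replicate 1 (0.31) or 3 (0.28) was left out, and when ortho IL-2 replicate 1 (0.34) or 3 (0.20) was. That of Aldoc ended with the same omissions (0.19 and 0.17, then 0.19 and 0.22). Taldo1 lost its call on omission of no IL-2 replicate 1 (0.22), ortho IL-2 replicate 1 (0.24) or ortho IL-2 replicate 3 (0.17). Pdk1 lost it on omission of no IL-2 replicate 3 (-0.15), ortho IL-2 replicate 1 (-0.15) or ortho IL-2 replicate 3 (-0.11), and Pgd on omission of no IL-2 replicate 3 (0.14). Rpe became lower by the test on omission of WT IL-2 replicate 1 (-0.23) or ortho IL-2 replicate 2 (-0.32).

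With WT IL-2, omission of any no IL-2 library ended the calls of Gpi1 (0.21, 0.24 and 0.20 without replicates 1, 2 and 3) and Pfkl (0.25, 0.29 and 0.27), as did omission of WT IL-2 replicate 1. Eno3 lost its call on omission of no IL-2 replicate 1 (0.18) or 3 (0.15), or of any WT IL-2 library (0.18, 0.19 and 0.19). Pgd kept its call only on omission of WT IL-2 replicate 2, and stood at 0.10 to 0.16 over the 9 omissions. Ldha lost its call on omission of no IL-2 replicate 1 (0.20) or 3 (0.18), and Slc16a3 on omission of no IL-2 replicate 1 (0.41). Calls were gained by Pfkm on omission of no IL-2 replicate 1 (0.21), by Rpia on omission of WT IL-2 replicate 1 (0.27) and by Taldo1 on omission of ortho IL-2 replicate 2 or 3 (0.19 each).

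**Figure D5:**
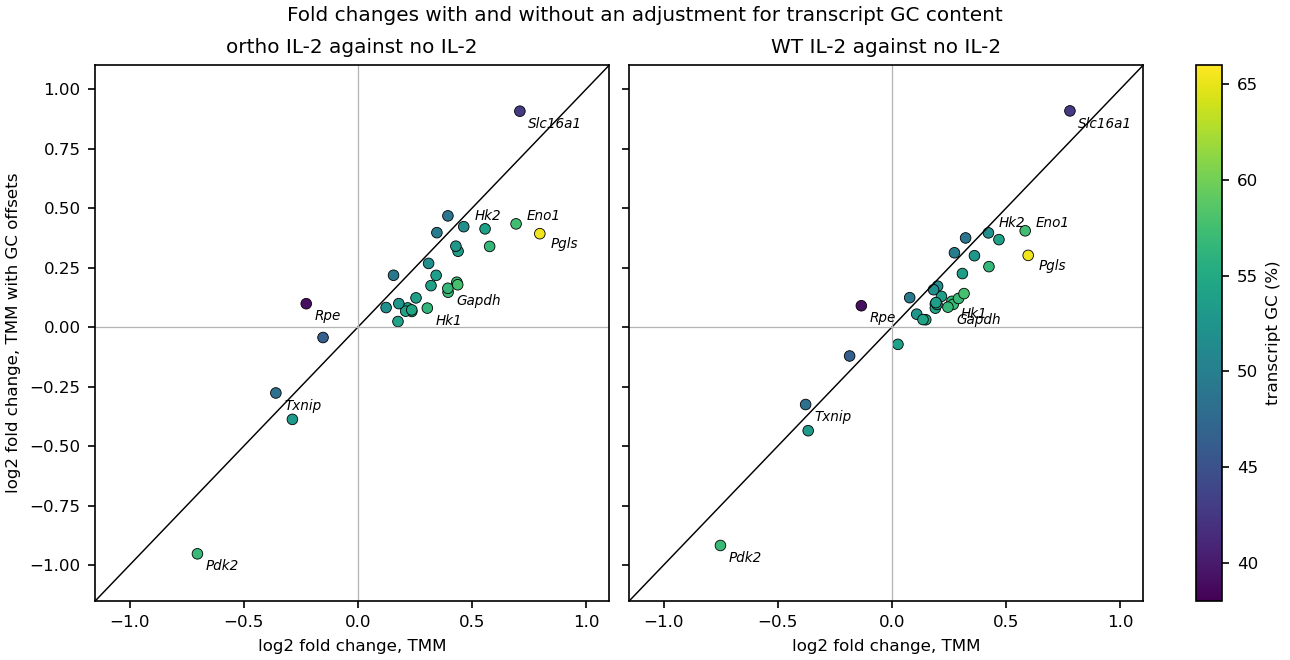
Log2 fold change of each of the 32 genes with offsets for transcript GC content (vertical axis) against the value without them (horizontal axis), for ortho IL-2 on the left and WT IL-2 on the right, coloured by transcript GC in percent; the diagonal marks equal values. GC-rich genes such as Eno1, Hk1, Gapdh and Pgls lie below the diagonal, Slc16a1 and Rpe above it, and Rpe changes sign.

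Against each other, ortho and WT IL-2 gave no called gene among the 32 (edgeR, adjusted p of 0.91 or more for each), where 0% of all 10702 genes were called by edgeR and 0 by DESeq2. At an unadjusted p below 0.05 there were 4 of the 32 (Aldoc, Tpi1, Gapdh and Pkm) and 149 of all genes. The log2 fold change of ortho over WT IL-2 was above 0 for 29 of the 32 genes and for 5090 of all 10702. For the 32 it ranged from -0.09 to 0.20, with a median of 0.08 beside -0.01 for all genes. With GC offsets the medians were 0.05 and 0.002, and Hk1, Pfkfb3, Eno3, Pdk2 and Pgd fell below 0. These genes may vary together, and the count above 0 was not tested. Groups did not overlap for 6 of the 32, where 4.65% of all genes did not. The largest differences were those of Pgls, at 0.20 (95% interval -0.45 to 0.85, and -0.087 to 0.65 as single libraries were left out), and Aldoc, at 0.18 (0.02 to 0.34). For Hk2 the interval was -0.07 to 0.15, for Slc2a1 -0.11 to 0.29, for Eno1 -0.08 to 0.30, for Slc16a1 -0.23 to 0.09 and for Pdk2 -0.19 to 0.29. A p that misses the threshold does not show that the cytokines act alike, and these intervals give the differences the data leave room for.

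Other genes of glucose use were taken from lists by name. Of 10 other glucose transporters, 4 were tested, and 1 of them was called, lower, with either cytokine. This was Slc2a6, a transporter found within cells, at 3.004, 2.41 and 4.08 RPKM with ortho IL-2, 3.54, 2.48 and 2.76 RPKM with WT IL-2 and 4.50, 4.42 and 5.10 RPKM with no IL-2. Its log2 fold change was -0.53 ± 0.19 (edgeR adjusted p = 0.036) and -0.66 ± 0.19 (adjusted p = 0.017). With ortho IL-2 the call ended on omission of any no IL-2 library (-0.56, -0.58 and -0.47) or of ortho IL-2 replicate 1 (-0.48) or 2 (-0.39). With WT IL-2 it ended on omission of WT IL-2 replicate 2 (-0.56) or 3 (-0.62), and on that of no IL-2 replicate 3 (-0.60). Of 16 other isozymes and enzymes of glycolysis, 5 were tested, and 1 rose and 3 fell with ortho IL-2 while 0 rose and 2 fell with WT IL-2. Adpgk, the ADP-dependent glucokinase, fell by 0.35 and 0.39 on the log2 scale, and Pfkfb2, a relative of Pfkfb3, by 0.49 and 0.39, with TMM scaling. On the deposited RPKM scale the highest value was that of ortho IL-2 replicate 3 for Adpgk, 36.1 RPKM, and for Slc2a6, 3.10 RPKM. Eno2, the neuronal enolase, rose with ortho IL-2 by 0.14 ± 0.05, and its sign turned with GC offsets, at -0.03. Omission of no IL-2 replicate 2 (0.13) or 3 (0.14), or of ortho IL-2 replicate 1 (0.15) or 2 (0.11), ended its call. On the TMM scale, relatives within a family thus moved in opposite directions, with Ldha and Pfkfb3 called higher and Ldhb and Pfkfb2 called lower.

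Of 10 other pentose phosphate genes, 9 were tested, and 2 rose and 1 fell with either cytokine. Tktl1, a transketolase-like gene, was at 1.06, 0.770 and 0.933 RPKM with ortho IL-2, 0.833, 0.858 and 0.617 RPKM with WT IL-2 and 2.79, 3.32 and 3.32 RPKM with no IL-2. Its log2 fold change was -1.75 ± 0.16 (edgeR adjusted p = 1.1e-05) and -2.02 ± 0.16 (adjusted p = 5e-06), at a level near the filter. Prps1, which activates ribose for nucleotide synthesis, rose by 0.18 ± 0.06 and 0.20 ± 0.06. Its close copy Prps1l3 rose by 0.23 and 0.30, and reads of the pair may be shared. Both calls were lost in either comparison on leaving out single libraries, with values down to 0.16 for Prps1 and 0.20 for Prps1l3.

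Of 16 genes of gluconeogenesis and glycogen, 12 were tested, and 6 rose and 2 fell with either cytokine. Pcx, pyruvate carboxylase, which turns pyruvate into oxaloacetate in mitochondria, had the largest change in this list. It was at 26.8, 24.8 and 28.6 RPKM with ortho IL-2, 30.0, 23.9 and 22.6 RPKM with WT IL-2 and 5.32, 4.56 and 5.31 RPKM with no IL-2. The fold over no IL-2 was 5.29 with ortho IL-2 (95% interval 4.42 to 6.33, edgeR adjusted p = 1.6e-07) and 5.06 with WT IL-2 (4.23 to 6.05, adjusted p = 1.8e-07). Pgm2, a phosphoglucomutase, rose by 0.38 ± 0.05 and 0.32 ± 0.05. Pgm2l1, a relative that makes a glucose bisphosphate, fell to 6.64, 7.66 and 6.14 RPKM with ortho IL-2 and 6.20, 7.79 and 7.77 RPKM with WT IL-2, against 16.6, 15.4 and 16.3 RPKM with no IL-2, by 1.24 and 1.15 on the log2 scale.

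Of 16 regulators of glucose use, 15 were tested, and 8 rose and 4 fell with ortho IL-2 while 5 rose and 4 fell with WT IL-2. Myc, a transcription factor known to drive glycolytic genes in T cells, was at 55.2, 51.6 and 60.1 RPKM with ortho IL-2, 63.1, 54.2 and 52.2 RPKM with WT IL-2 and 9.48, 10.7 and 10.8 RPKM with no IL-2. The fold over no IL-2 was 5.40 with ortho IL-2 (edgeR adjusted p = 3.3e-08) and 5.48 with WT IL-2 (adjusted p = 3e-08). Hif1a, the oxygen-regulated subunit of HIF-1, fell on the TMM scale. It was at 229, 230.4 and 203 RPKM with ortho IL-2, 203, 249 and 254 RPKM with WT IL-2 and 302, 299.96 and 293 RPKM with no IL-2, a log2 fold change of -0.43 ± 0.08 (adjusted p = 0.0018) and -0.34 ± 0.08 (adjusted p = 0.0078). Its activity is known to be set largely by protein stability, which was not measured. On the deposited RPKM scale Hif1a was at 142 to 181 RPKM over all libraries, and the WT IL-2 and no IL-2 groups overlapped. The GC content of its transcript is 41.3%, against a median of 50.0% for all genes tested. Egln3, a prolyl hydroxylase of HIF and itself a hypoxia-induced gene, rose by 0.48 ± 0.04 and 0.47 ± 0.04. Arrdc4, the paralog of Txnip and induced by the same glucose-sensing factors, fell to 3.25, 3.83 and 3.50 RPKM with ortho IL-2 and 3.63, 3.76 and 3.46 RPKM with WT IL-2, against 6.29, 7.08 and 6.77 RPKM with no IL-2, by 0.93 and 0.89 on the log2 scale.

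Markers of other cell types gave these values beside the rise of the glycolytic genes. Summed myeloid markers were at 54.4 to 66.9 RPKM with ortho IL-2, 49.6 to 63.9 RPKM with WT IL-2 and 46.0 to 49.2 RPKM with no IL-2. Most of that sum was Cst3, at 58.7, 51.0 and 64.0 RPKM with ortho IL-2, 60.9, 46.5 and 52.7 RPKM with WT IL-2 and 45.3, 42.5 and 45.1 RPKM with no IL-2, a gene that many cell types express. Lyz2 and Csf1r, which define myeloid cells, were at most 0.0721 and 0.00871 RPKM in any library. Itgam fell, by 0.62 with ortho IL-2 and 0.60 with WT IL-2 on the log2 scale. Cd68 went the other way and was too low to be tested. It averaged 1.40, 1.42 and 1.12 RPKM with ortho, WT and no IL-2, with groups that overlapped. Summed markers of CD8 T and NK cells were at 8.14 to 8.76 RPKM with ortho IL-2, 8.14 to 8.50 RPKM with WT IL-2 and 8.05 to 8.50 RPKM with no IL-2. Within that sum, Cd8a and Klrd1 were too low to be tested, and their means differed between groups in opposite directions. Cd8a averaged 0.96, 0.88 and 0.46 RPKM and Klrd1 0.52, 0.43 and 1.21 RPKM with ortho, WT and no IL-2, and most of the sum was Cd8b1, which was not called. Those of B cells were at 3.55 to 3.74 RPKM with ortho IL-2, 2.88 to 3.53 RPKM with WT IL-2 and 3.29 to 3.82 RPKM with no IL-2, and those of erythroid cells and platelets were at most 0.840 RPKM. Pseudogene copies are named in the annotation for Aldoa, Gapdh, Pgk1, Pgam1 and Ldha, so reads of these genes may be shared with copies and their levels are less sure for that reason. Genes annotated on the opposite strand overlap others, among them Senp1 with Pfkm, Pitrm1 with Pfkp, Spsb2 with Tpi1, Iffo1 with Gapdh, Fam57b with Aldoa and Kansl1l with Rpe, and without known strand use their reads cannot be told apart there. The part of these markers and overlaps in the results was not tested.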

How the data were processed

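Each library has a table of 31682 RefSeq transcripts with raw read counts and RPKM, as deposited by the authors and named in the file headers. The build was mm10 and the tools TopHat2, Bowtie2, bedtools 2.25.0, SAMtools 0.1.8 and edgeR, per the submitters' processing notes. Not given in the sources used here are the read counter, the annotation release and strand use. The deposited RPKM values equal counts divided by transcript length and a whole number per library, the RPKM divisor, which includes reads outside the transcripts used.

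The member genes, the other gene lists, the markers and the tests were chosen with earlier results of these data known. For each symbol the transcript with the most reads was taken. Genes that reached 1 RPKM in 3 or more of 9 libraries were tested on counts with edgeR 4.0.16 (R 4.3.3), TMM scaling, group means over all 9 libraries, the quasi-likelihood test and Benjamini-Hochberg adjustment over 10702 genes (two-sided, threshold 0.05). Fold changes are the first-named group over the second, with standard errors (SE). The main fit did not treat libraries as paired by replicate number. The plan gave levels as deposited RPKM; they are printed TMM-scaled instead, because the divisor differs between groups. Shares and sums are descriptions. The rule for named genes took all members, up to 3 called genes with the smallest p from each other list, and Hif1a and Myc. Foxp3, Gm15441, Lyz2, Csf1r, Cd68, Pdk3, Pdk4, Cd8a, Cd8b1 and Klrd1 were named besides. Of the listed symbols, Tigar and Adgre1 were found under older names and Trac was not analysed.

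Alternatives were DESeq2 1.42.0, RLE factors, the RPKM divisor, limma 3.58.1 on log2(RPKM + 1) and log2(RPKM + 0.1), no filter, an RPKM of at least 5, the longest transcript, only the libraries compared, a replicate block, offsets for GC content (from GENCODE transcripts, 99.1% of symbols), a covariate for reads outside genes, and leaving out each library. Leaving out WT IL-2 replicate 1 and ortho IL-2 replicate 3 together was added after seeing the data. The edgeR step was tested on simulated data. No libraries were alike within sampling noise. Gene coordinates are those of GRCm38 (GENCODE M21).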

Additional observations from a re-analysis of the deposited data

How the results depend on the processing

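With ortho IL-2, 30 members were called against no IL-2, and 25 to 31 on leaving out any 1 library, 22 to 26 of them higher and 3 to 5 lower. With WT IL-2, 23 were called, and 18 to 23 on leaving out any 1 library, 14 to 19 higher and 4 lower. DESeq2, RLE factors, other filters, the longest transcript and only the libraries compared gave 27 to 30 with ortho IL-2 and 18 to 24 with WT IL-2. Between the cytokines 0 were called in every setting run. Adjusting for reads outside genes as a covariate left 10 called with ortho IL-2 (8 higher, 2 lower) and 10 with WT IL-2 (7 higher). With GC offsets 17 were higher with ortho IL-2, and with the replicate block and GC offsets 19 were called, 16 of them higher. On the RPKM divisor and in both limma fits 1 was called lower in each comparison, against 4. The divisor moved the median of all genes to 0.29 with ortho IL-2 and 0.22 with WT IL-2, and 85.8% and 83.8% of calls were then higher, against 51.0% and 52.2% with TMM.

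Libraries with the same replicate number correlated at -0.81 to 0.76 in their deviations, and those with other numbers at -0.88 to 0.79. No steady pairing by number was seen. With 3 libraries per group, whether the numbers mark shared cultures or animals cannot be told from these values. With the replicate block 28 members were called with ortho IL-2 (24 higher) and 21 with WT IL-2 (17 higher).

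Signs turned as follows, as log2 fold changes. With WT IL-2 against no IL-2, Aldoc was at -0.073 with GC offsets, -0.071 with the block added, -0.0096 without no IL-2 replicate 3, -0.044 to 0.081 over all omissions of 1 library, and -0.048 without both WT IL-2 replicate 1 and ortho IL-2 replicate 3. Pdk1 was at 0.029, 0.028 and 0.029 on the divisor and in the limma fits, Tkt at -0.036 with the covariate, and Eno2 at -0.045 with GC offsets and -0.044 with the block added. Rpe was at 0.080, 0.072 and 0.075 on the divisor and in the limma fits, 0.090 with GC offsets, 0.091 with the block added and 0.090 with the covariate. With ortho IL-2, the divisor and the limma fits gave 0.12 each for Pdk1, 0.051, 0.046 and 0.048 for Rpe, and 0.023, 0.020 and 0.021 for Pdpr. GC offsets gave 0.098 for Rpe and -0.030 for Eno2, the block added 0.099 for Rpe and -0.030 for Eno2, and the covariate 0.054 for Rpe.

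For ortho against WT IL-2, GC offsets, without and then with the block, gave -0.028 and -0.030 for Hk1, -0.016 and -0.016 for Pfkfb3, -0.0074 and -0.0061 for Eno3, -0.035 and -0.037 for Pdk2, -0.0081 and -0.0078 for Pgd, and 0.0085 and 0.0088 for Rpe. Rpia was at 0.0051, 0.0079 and 0.0088 on the divisor and in the limma fits, and Txnip at -0.0064 with the covariate. Over omissions of 1 library, Txnip ranged over -0.0048 to 0.044, Pdk1 over -0.0084 to 0.070, Pdk2 over -0.029 to 0.15, Pgls over -0.087 to 0.65, Taldo1 over -0.023 to 0.15, Rpia over -0.14 to 0.013 and Rpe over -0.20 to 0.0043. The cause of these changes was not tested. In all, 54 values for single genes turned sign and 229 lost their call. Another 3739 were labelled as the same. That number mixes values for single genes with counts of called genes per list, so it does not measure the stability of single genes. Few reads limit Gm15441, Tktl1, Pfkfb4, Slc2a6, Pgls and Pdk2, among others.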
